A study of Homo sapiens with 18 samples.

Results

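The comparison concerned 2 mutations of the same enzyme in HCT116, an established human colorectal carcinoma line: IDH2 R172K/+ clones 47C2 and 45G3 against IDH2 R140Q/+ clones 17H5 and 8G12. It took 8 of the 18 one-colour Affymetrix expression arrays of the series, chosen by the genotype and clone in their titles, with 4 arrays per genotype and 2 biological replicates per clone. All 4 clones share the HCT116 background, are heterozygous in the labels, which give their IDH status at the mRNA level, and had grown for 6 days without treatment when total RNA was taken. Each clone is 1 derived line, so 2 clones stand for each mutation, and no wild-type clone enters the comparison. A probe set reads both IDH2 alleles together.

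IDH2 is the mitochondrial NADP-dependent isocitrate dehydrogenase, which turns isocitrate into 2-oxoglutarate. Substitution of either arginine gives an enzyme that reduces 2-oxoglutarate to 2-hydroxyglutarate, a metabolite that can compete with 2-oxoglutarate at dioxygenases, among them histone and DNA demethylases. The series asks about the epithelial-mesenchymal transition (EMT), in which epithelial cells lose junction proteins such as E-cadherin and gain mesenchymal ones such as vimentin. ZEB1 is a repressor of epithelial genes in that transition, and the miR-200 family holds ZEB1 down.

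The values are MAS5 signals on a linear scale, already set to 1 level by the authors, so a signal has no unit and is compared between arrays only within a probe set. Array medians of these 8 arrays lay between 12.4 and 15.6, and 2 arrays per clone set the precision. Replicate arrays of a clone correlated at 0.9869 to 0.9952 over all genes tested, arrays of different clones of a genotype at 0.9806 to 0.9868, and arrays of different genotypes at 0.9719 to 0.9861. Among spike-in signals, the poly-A controls were lowest in 45G3 replicate 1 (mean signal 68.0) and highest in 8G12 replicate 2 (186.5). Their part in the results was not tested. Of the markers of other cell types, 3 of 11 fibroblast, 2 of 13 haematopoietic and 1 of 7 endothelial genes passed the filter on dim probe sets, and none was called. Among the markers that did not pass, PTPRC, DCN and COL1A2 lay at 0.2 to 3.6, 0.7 to 4.7 and 1.1 to 4.8 over the 8 arrays. The markers that passed were brighter on average. Over clones 47C2, 45G3, 8G12 and 17H5, mean log2 levels of the fibroblast genes that passed ran from 6.2 to 6.5. They ran from 4.2 to 4.5 for the haematopoietic genes and from 4.5 to 5.2 for the endothelial gene. The source of these signals was not tested. The epithelial genes KRT18, KRT19 and EPCAM were bright in every array (3605 to 3827, 2971 to 3436 and 1701 to 1908 in R172K arrays, and 2979.8 to 3969.9, 2632 to 3078 and 2017 to 2212 in R140Q arrays), whereas the intestinal markers CDX1 (1.1 to 7.3 over the 8 arrays) and VIL1 (0.9 to 6.3) were dim.

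Tested over clones, with a spread shared by the whole series, no gene passed between R172K and R140Q. With the clone as the replicate (limma on 9 clone means, 4 residual degrees of freedom, Benjamini-Hochberg over 12537 genes), 0 genes passed an adjusted p of 0.05, which is 0% of those tested, and the smallest adjusted p was 0.245. At an unadjusted p under 0.05 there were 852 genes, 249 higher and 603 lower in R172K. The median difference of all genes, R172K minus R140Q on the scale of log2(signal + 2.2), was -0.02, and 54.0% of genes lay lower in R172K.

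The single clones did differ, and most of what follows describes clones. Each R172K clone was set against each R140Q clone on the arrays (limma with the clone as factor, 9 residual degrees of freedom), which gave 4 comparisons. 47C2 minus 8G12 called 778 genes (6.21%), 187 higher and 591 lower. 47C2 minus 17H5 called 1989 (15.9%), 825 higher and 1164 lower. 45G3 minus 8G12 called 372 (2.97%), 87 higher and 285 lower, and 45G3 minus 17H5 called 1592 (12.7%), 693 higher and 899 lower. Clones of 1 genotype differed too: 47C2 minus 45G3 called 369 genes (2.94%), and 17H5 minus 8G12 called 423 (3.37%). The count for 45G3 minus 8G12 was therefore close to the counts within a genotype. The standard deviation of the differences over all genes was 0.38, 0.45, 0.32 and 0.41 in the 4 comparisons between genotypes, in the order given, and 0.32 and 0.33 within genotypes.

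**Figure D1:**
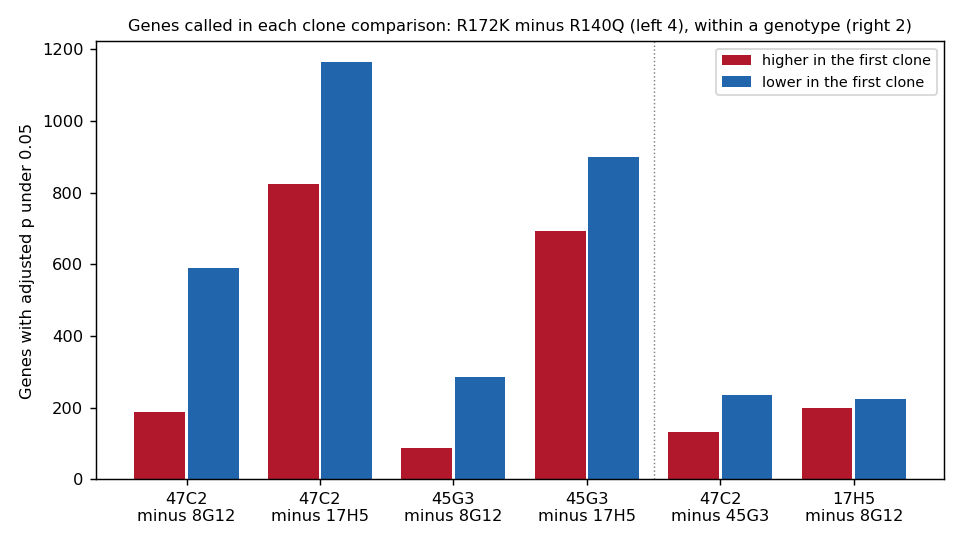
Number of genes with an adjusted p under 0.05 (limma on arrays, vertical axis) in each clone comparison, higher (red) or lower (blue) in the clone named first. The 4 comparisons of R172K minus R140Q clones are left of the dotted line, and those within a genotype are right of it. Among the comparisons between genotypes, those with 17H5 have the tallest bars, and in each of the 6 comparisons the lower calls outnumber the higher ones.

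A gene is referred to below as called higher or lower when all 4 comparisons between genotypes passed in 1 direction. This held for 25 genes higher in R172K (0.199% of those tested) and 103 lower (0.822%). The 4 comparisons share arrays, and the rule shows that 2 particular clones lay apart from 2 others, not that the mutation sets them apart. Of these 128 genes, 112 had an unadjusted p under 0.05 over clones (limma). That count is no separate support, because the genes were chosen on the same arrays for the same difference. Leaving out 1 array left 64 to 119 called genes, and the count was 64 without 8G12 replicate 1, 73 without 8G12 replicate 2, 77 without 47C2 replicate 1, 79 without 17H5 replicate 2 and 81 without 47C2 replicate 2. Mean differences ran from 0.50 to 3.43 for the genes called higher and from -3.86 to -0.42 for those called lower.

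Comparisons that share no array can be set against each other. Across 12537 genes, which are not independent replicates, 47C2 minus 8G12 and 45G3 minus 17H5 correlated at 0.305. Of the genes that differed by at least 1 (log2) in both, 84 went the same way and 13 the opposite way. The other such pair, 47C2 minus 17H5 and 45G3 minus 8G12, correlated at 0.347, with 71 genes the same way and 7 the opposite way. The comparisons within each genotype, 47C2 minus 45G3 and 17H5 minus 8G12, correlated at 0.026.

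**Figure D2:**
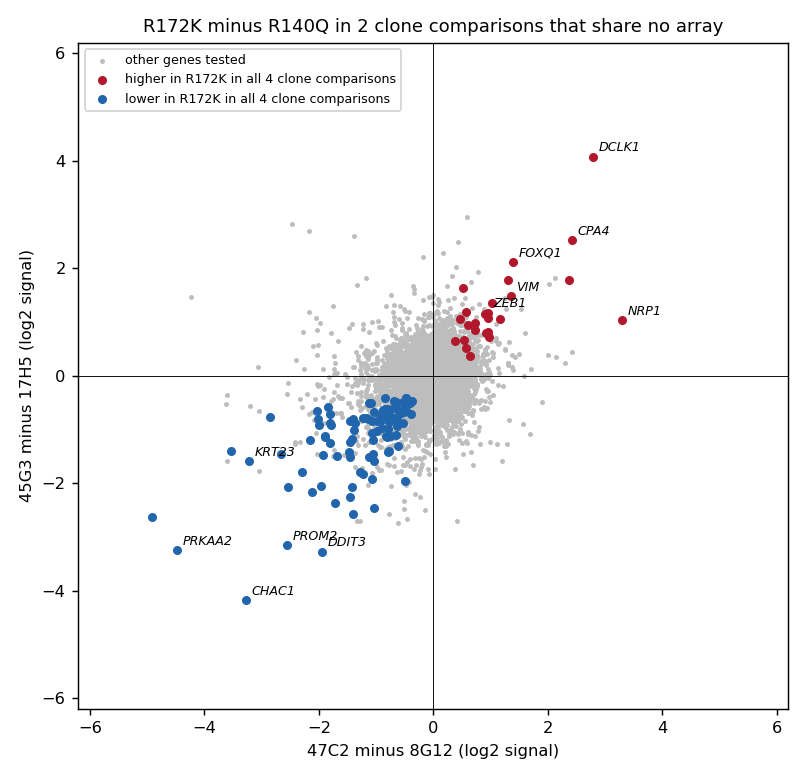
Difference of each gene (log2 signal) in 47C2 minus 8G12 (horizontal) and in 45G3 minus 17H5 (vertical), which share no array. Red and blue points are the 25 genes called higher and the 103 called lower in R172K, which the rule places in the upper right and lower left. Grey points are all other genes tested.

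IDH2 itself had lower signals in every R172K array on its brighter probe set, without passing the test. Its signals were 166 and 165 in 47C2 and 177 and 139 in 45G3, against 225 and 229 in 17H5 and 242 and 305 in 8G12. On this probe set the genotypes did not overlap, and the 2 R172K clones were alike. Parental HCT116 and clone 16F8, in neither group and described below, had mean signals of 127.2 and 122.3 on it, lower than both genotypes. The mean was 162 ± 5.44 in R172K clones against 250.2 ± 33.2 in R140Q clones (SD over clone means, n = 2 clones each), a difference of -0.62 ± 0.16 (SE), which over clones gave an unadjusted p of 0.00392 and an adjusted p of 0.523 (limma). No clone comparison passed, with adjusted p from 0.0517 to 0.159. A second, dimmer IDH2 probe set differed by -0.38, and there the genotypes overlapped, with 170.1 in 45G3 replicate 1 against 169.0 in 17H5 replicate 2.

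IDH1, the cytosolic isoform, had signals of 1382 and 1286 in 47C2 and 1538 and 1256 in 45G3, against 1466 and 1463 in 17H5 and 1468 and 1344 in 8G12. The groups overlapped, and the difference was -0.08 ± 0.20 (adjusted p = 0.951 over clones, limma). Among 11 tested isocitrate and 2-hydroxyglutarate dehydrogenase genes, 0 were called in either direction, and the median difference was -0.07 against -0.02 for all genes. Of the 11, 2 had an unadjusted p under 0.05 over clones (limma), both lower, against 603 lower of all 12537 genes. D2HGDH, the enzyme that oxidises D-2-hydroxyglutarate, averaged 68.1 ± 8.17 in R172K clones against 92.4 ± 3.36 in R140Q clones and differed by -0.45 ± 0.17 with overlapping arrays. PHGDH, the first enzyme of serine synthesis, differed by -0.45 ± 0.42, and IDH3B and MDH2 of the citric acid cycle by 0.15 ± 0.18 and -0.09 ± 0.08. ADHFE1, a transhydrogenase that can form 2-hydroxyglutarate, was dim (11.3 to 14.7 in R172K and 11.9 to 19.3 in R140Q arrays).

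ZEB1 lay higher in both R172K clones than in both R140Q clones. Its signals were 325 and 285 in 47C2 and 307 and 232 in 45G3, against 118 and 116 in 17H5 and 141 and 176 in 8G12. Every R172K array exceeded every R140Q array, and 17H5 was lowest. The mean was 287 ± 25.4 in R172K clones against 138 ± 29 in R140Q clones (SD, n = 2 clones each). The difference of 1.06 ± 0.29 did not pass over clones (adjusted p = 0.583, limma), and all 4 clone comparisons passed (adjusted p from 6.76e-06 to 0.00772). The call ended without 45G3 replicate 1, without 8G12 replicate 1, and when the gene was represented by its most variable probe set, which is dim. All 4 ZEB1 probe sets were higher in R172K, by 0.62, 0.90, 1.03 and 1.06. The related repressor ZEB2 was at 0 to 1.9 in every array of its brightest probe set and was not tested.

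Vimentin, the intermediate filament protein of mesenchymal cells, showed the same order of clones. VIM signals were 340.1 and 328 in 47C2 and 264 and 239 in 45G3, against 98.5 and 79.8 in 17H5 and 111 and 152 in 8G12. The highest R140Q array, in 8G12, was below the lowest R172K array. The difference was 1.41 ± 0.33 (adjusted p = 0.495 over clones, limma; adjusted p from 5.49e-07 to 0.00341 in the clone comparisons). Without 8G12 replicate 1 the comparisons did not all pass.

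CDH1, which encodes E-cadherin, went the other way. Its signals were 524 and 516 in 47C2 and 734 and 558 in 45G3, against 1255 and 1364 in 17H5 and 1032 and 1040.2 in 8G12. The groups did not overlap, and 45G3 replicate 1 came nearest to the R140Q arrays. The mean was 583 ± 89.1 in R172K clones against 1173 ± 193 in R140Q clones (SD, n = 2 clones each), a difference of -1.01 ± 0.27 (adjusted p = 0.546 over clones, limma; adjusted p from 4.4e-06 to 0.0087 in the clone comparisons). The call ended without 45G3 replicate 2 and without either 8G12 replicate. In bulk RNA, fewer cells that express a gene and less of its RNA per cell cannot be told apart, here and for every gene below. EPCAM, another epithelial adhesion molecule, differed by -0.21 ± 0.15 (adjusted p = 0.794 over clones, limma), with no overlap between the groups and no clone comparison that passed. N-cadherin (CDH2) was dim in all 8 arrays (5.4 to 12) and was not tested.

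**Figure D3:**
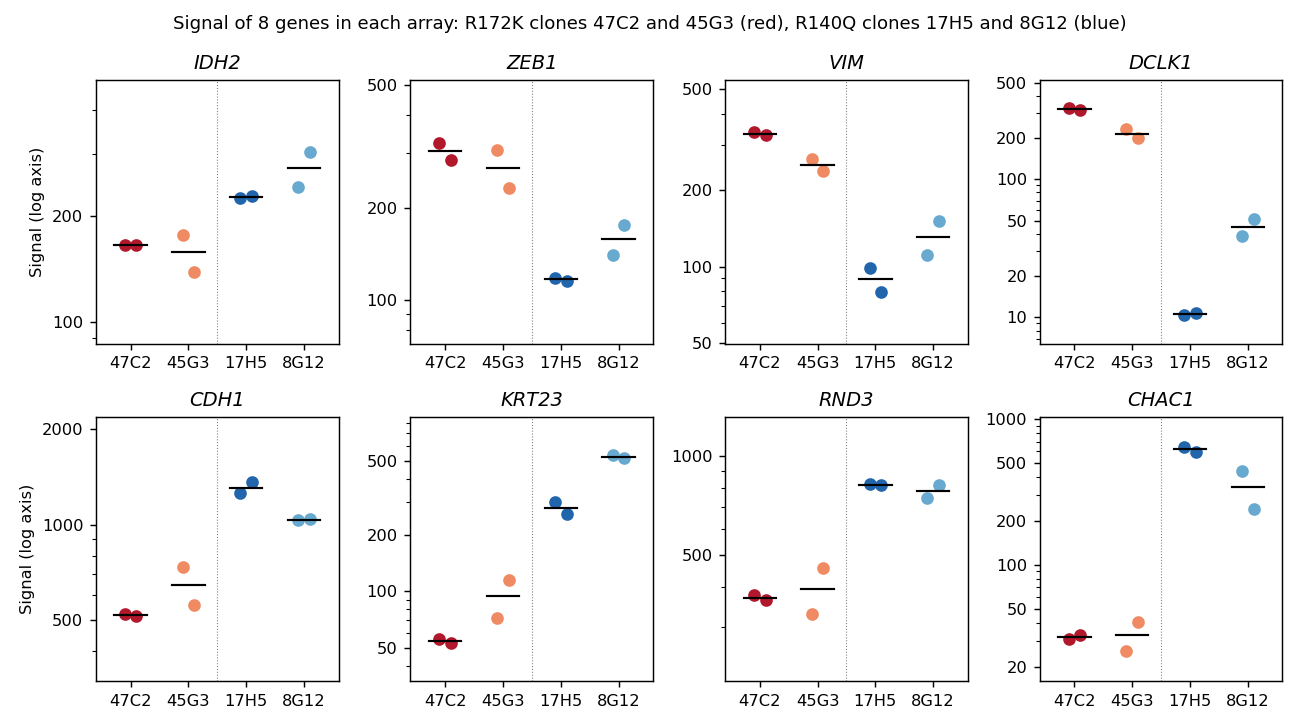
Signal (log axis) of 8 genes in each array of the R172K clones 47C2 and 45G3 (red, left) and of the R140Q clones 17H5 and 8G12 (blue, right); points are arrays and bars are clone means. ZEB1, VIM and DCLK1 lie higher, and IDH2, CDH1, KRT23, RND3 and CHAC1 lower, in each of the 4 R172K arrays than in any R140Q array.

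Other epithelial genes were lower in R172K clones as well. Of 36 tested epithelial markers, 8 were called lower and 0 higher, against backgrounds of 0.822% and 0.199% of all genes tested. The list's median difference was -0.47, against -0.02 for all genes, and 32 of 36 genes were lower in R172K, against 54.0% of all genes. In the single comparisons the medians were -0.47 (47C2 minus 8G12), -0.51 (47C2 minus 17H5), -0.39 (45G3 minus 8G12) and -0.44 (45G3 minus 17H5), against -0.10 for 47C2 minus 45G3 and 0.09 for 17H5 minus 8G12. Of the 8 genes, 3 were still called without 8G12 replicate 1, and 6 or 7 without any other single array. Some of those settings also called GRHL2, CLDN7 or ST14, which were named after their values were seen.

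S100A14, an EF-hand protein of epithelia, was the epithelial marker with the largest called difference. Its signals were 169 and 163 in 47C2 and 229.8 and 368 in 45G3, against 1015 and 997 in 17H5 and 861 and 782 in 8G12. The highest R172K array, 45G3 replicate 2, was below the lowest R140Q array, and 47C2 was lower than 45G3. The difference was -2.04 ± 0.81 (adjusted p = 0.731 over clones, limma; adjusted p from 3.65e-08 to 0.000153 in the clone comparisons). AP1M2, the epithelial subunit of a clathrin adaptor that sorts proteins to the basolateral membrane, had 44.3 and 42.3 in 47C2 and 55.4 and 83.2 in 45G3, against 193 and 192 in 17H5 and 164 and 178 in 8G12. It differed by -1.70 ± 0.48 (adjusted p = 0.583; adjusted p from 2.84e-07 to 0.000294 in the clone comparisons), again with no overlap. PRSS8, the membrane protease prostasin, had 40.8 and 39.8 in 47C2 and 49 and 45.2 in 45G3, against 129 and 91.9 in 17H5 and 120.5 and 104 in 8G12. Its R172K arrays were close together, and its difference was -1.30 ± 0.30 (adjusted p = 0.495; adjusted p from 0.000417 to 0.00523). The PRSS8 call ended without 8G12 replicate 1, whereas those of S100A14 and AP1M2 held without any 1 array.

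MAL2, a protein of apical transport, separated the R172K clones from each other as well. Its signals were 559 and 596 in 47C2 and 1126 and 1545 in 45G3, against 2132 and 2190.5 in 17H5 and 2147 and 1921 in 8G12. 45G3 lay between 47C2 and the R140Q clones, and 47C2 minus 45G3 was -1.19 (adjusted p = 3.23e-05, limma). RAB25, a small GTPase of epithelial recycling endosomes, had the same order, with 547 and 511 in 47C2 and 762 and 853 in 45G3, against 1177 and 1115 in 17H5 and 1178 and 1126 in 8G12. Its mean difference was -0.81 ± 0.72 (adjusted p = 0.831 over clones; adjusted p from 9.63e-07 to 0.00801 in the clone comparisons). The calls of MAL2 and RAB25 ended without 8G12 replicate 1, and that of MAL2 also without 45G3 replicate 1. CLDN4, a tight junction claudin, and PKP3, a desmosomal plakophilin, completed the 8 called genes; both fall outside the rule for named genes and were chosen after their values were seen. CLDN4 averaged 240.5 ± 14.5 in R172K clones against 356 ± 7.74 in R140Q clones and differed by -0.57 ± 0.15, and PKP3 averaged 148 ± 8.03 in R172K clones against 242 ± 2.16 in R140Q clones and differed by -0.70 ± 0.18. The CLDN4 call ended without any 1 of the 8 arrays, and that of PKP3 without 47C2 replicate 1.

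Promoters of 4 of the 8 called epithelial markers were in the RefSeq promoter table (GRCh38.p14, 250 bases before to 50 after the start). They were searched on both strands for CACCTG, an E-box to which ZEB1 is known to bind, without masking other motifs. The motif was in 3 of the 4, AP1M2, RAB25 and S100A14. It was also in 5 of 12 promoters (41.7%) of the called ATF4 response genes described below, those of CHAC1, STC2 and TRIB3. So it was not particular to the epithelial genes. It was in 29.2% of 120 promoters of genes called lower and in 21.2% of 33 promoters of genes called higher. The share was 19.0% of 14953 promoters of genes tested, and 20.6% of all 35116 promoters of the same length. A match is a description of the letters and not of binding. The AP1M2 promoter (chr19:10587263-10587562, minus strand) and the RAB25 promoter (chr1:156060910-156061209, plus strand) are shown because these genes were called and hold the motif 3 times and 2 times; capitals mark it.
AP1M2: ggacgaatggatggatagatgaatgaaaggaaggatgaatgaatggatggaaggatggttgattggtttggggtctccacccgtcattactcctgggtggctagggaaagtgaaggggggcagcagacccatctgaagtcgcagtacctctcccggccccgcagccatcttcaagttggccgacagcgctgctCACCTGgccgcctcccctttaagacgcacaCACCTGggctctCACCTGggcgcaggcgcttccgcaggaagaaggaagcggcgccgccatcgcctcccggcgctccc
RAB25: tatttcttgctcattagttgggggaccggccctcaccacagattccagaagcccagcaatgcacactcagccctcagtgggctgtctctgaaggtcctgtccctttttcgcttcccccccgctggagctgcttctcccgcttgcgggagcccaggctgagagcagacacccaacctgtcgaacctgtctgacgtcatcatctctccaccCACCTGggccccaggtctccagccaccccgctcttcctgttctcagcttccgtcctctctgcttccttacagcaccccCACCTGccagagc

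Mesenchymal genes gave fewer calls. Of 24 tested mesenchymal markers 1 was called, VIM, higher, against 0.199% of all genes tested. The median difference was -0.03. SPARC, a matrix glycoprotein, averaged 444 ± 50.4 in R172K clones against 277 ± 76.8 in R140Q clones, but its arrays overlapped and its difference of 0.67 ± 0.53 did not pass (adjusted p = 0.812, limma). Fibronectin (FN1) differed by 0.39 ± 0.31, the protease MMP14 by -0.33 ± 0.22 and the collagen COL6A2 by -0.29 ± 0.21, all with overlapping arrays. TNC was dim in both genotypes (2.9 to 6.1 in R172K and 1.6 to 4.4 in R140Q arrays).

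An EMT score was taken as the mean log2 level of the mesenchymal list minus that of the epithelial list. It was -0.77 ± 0.01 in 47C2 and -0.94 ± 0.21 in 45G3, against -1.59 ± 0.06 in 17H5 and -1.31 ± 0.13 in 8G12 (SD, n = 2 arrays each). The R172K clones were higher by 0.60, and the exact two-sided permutation p of 0.333 is the smallest that 6 splits of 4 clones allow, so this design cannot reach 0.05. The epithelial mean was 8.21 in 47C2 and 8.40 in 45G3, against 8.90 in 17H5 and 8.80 in 8G12. The mesenchymal mean was 7.44 and 7.46 in the R172K clones 47C2 and 45G3, against 7.31 and 7.49 in the R140Q clones 17H5 and 8G12, with 8G12 highest.

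Among 12 tested EMT transcription factors, ZEB1 and FOXQ1 were called higher and SOX4 lower, against 0.199% and 0.822% of all genes tested. FOXQ1, a forkhead factor, had 286 and 304 in 47C2 and 482 and 227 in 45G3, against 73.7 and 76.2 in 17H5 and 127 and 97.3 in 8G12. All R172K arrays were above all R140Q arrays, and 45G3 replicate 1 was highest. Its difference was 1.75 ± 0.42 (adjusted p = 0.495 over clones, limma; adjusted p from 2.64e-05 to 0.00166 in the clone comparisons). SOX4, an SRY-related factor, had 606 and 584 in 47C2 and 568 and 699.7 in 45G3, against 832 and 860.1 in 17H5 and 1021 and 1116 in 8G12. It differed by -0.63 ± 0.28 (adjusted p = 0.731; adjusted p from 4.1e-05 to 0.0121), and 8G12 was highest. The SOX4 call ended without 17H5 replicate 2, without 45G3 replicate 1 and with its most variable probe set. TWIST1 split the R172K clones instead, with 55.8 and 56.8 in 47C2 and 228 and 139 in 45G3, against 156 and 173 in 17H5 and 138 and 144 in 8G12. 47C2 was low and 45G3 overlapped the R140Q arrays. KLF4 and ETS1 differed by -0.65 ± 0.47 and 0.43 ± 0.27 with overlap. Of 24 tested miR-200 family targets 1, ZEB1, was called higher, against 0.199% of all genes tested. In this list 12 were higher and 12 lower, and the median was 0.00. Of 26 genes of the TGF-beta pathway, a signal that can induce EMT, 0 were called. PMEPA1, a target and inhibitor of that pathway, had 69 and 63 in 47C2 and 47.1 and 24 in 45G3, against 13.3 and 5.7 in 17H5 and 12.9 and 16.6 in 8G12. Its arrays did not overlap, its difference was 1.86 ± 0.66 (adjusted p = 0.684 over clones), and 3 of the 4 clone comparisons passed. LTBP1, which binds latent TGF-beta in the matrix, had 92.8 and 100.1 in 47C2 and 229 and 156 in 45G3, against 292 and 320.1 in 17H5 and 291 and 314 in 8G12, a difference of -1.16 ± 0.32 with no overlap. BMP4, TGFB2, SKI and ID2 differed by 0.74, 0.64, 0.57 and -0.51.

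Keratin genes parted by member. KRT23, a keratin of gut and other epithelia, had 55.6 and 53 in 47C2 and 72.2 and 116 in 45G3, against 299.9 and 259 in 17H5 and 535 and 516 in 8G12. Its R172K arrays were at most 116 and its R140Q arrays at least 259, and 8G12 was highest. The difference of -2.40 ± 0.39 had one of the 5 smallest p-values over clones (unadjusted p = 0.000185, adjusted p = 0.389, limma), and the clone comparisons gave adjusted p from 2.34e-08 to 6.15e-05. KRT20, a keratin of differentiated intestinal cells, had 9.9 and 10.2 in 47C2 and 20.3 and 23.2 in 45G3, against 35.1 and 37.1 in 17H5 and 49.7 and 52.2 in 8G12, without overlap, a difference of -1.40 ± 0.33 and 3 of 4 comparisons passed. The bright simple-epithelial keratins KRT8 and KRT19 differed by 0.13 ± 0.15 and 0.14 ± 0.10 with overlap. KRT80 and KRT13 differed by -0.39 ± 0.37 and 0.35 ± 0.68. The median of the 10 tested keratins was 0.05, and KRT23 was the only one called, against 0.822% of all genes called lower.

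The 4 other genes with the smallest p-values over clones were RND3, C5orf24, TMPRSS4 and MSX2. RND3, which lowers actin contractility, had 377 and 363 in 47C2 and 329.8 and 455 in 45G3, against 822 and 814 in 17H5 and 745 and 817 in 8G12. Both genotypes were tight, and the difference of -1.07 ± 0.13 had the smallest p-value of all (unadjusted p = 1.96e-05, adjusted p = 0.245, limma). C5orf24 had 778 and 825 in 47C2 and 557 and 909 in 45G3, against 1411 and 1157 in 17H5 and 1010.3 and 1417 in 8G12, a difference of -0.71 ± 0.12, and was called in 3 of the 4 comparisons. TMPRSS4, a transmembrane serine protease, was at 0.4 to 0.9 in the R172K arrays and 8.9 to 16.4 in the R140Q arrays, so it was dim throughout. It differed by -2.31 ± 0.39 (adjusted p = 0.389), but this size rests on the offset of 2.2 added before the log and was -0.76 with an offset of 16 and -0.30 with 50. MSX2, a homeobox transcription factor, had 416 and 386 in 47C2 and 558 and 407 in 45G3, against 203 and 248 in 17H5 and 222 and 193 in 8G12. It differed by 1.01 ± 0.17 (adjusted p = 0.389; adjusted p from 5.12e-05 to 0.00045 in the clone comparisons), and no array of one genotype reached the other.

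DCLK1, a doublecortin-like kinase that binds microtubules, had the largest mean difference among the genes called higher, at the offset of 2.2. Its signals were 328 and 317 in 47C2 and 229.5 and 197 in 45G3, against 10.3 and 10.7 in 17H5 and 38.8 and 51.7 in 8G12. The R140Q clones were far apart, and 17H5 minus 8G12 was -1.89 (adjusted p = 3.28e-05, limma). The difference between genotypes was 3.43 ± 1.13 (adjusted p = 0.666 over clones, and from 1.07e-10 to 7.33e-06 in the clone comparisons, limma). With offsets of 16 and 50 the DCLK1 difference was 2.79 and 2.045, against 2.33 and 2.044 for CPA4, described next. Parental HCT116 and 16F8, a targeted clone, are in neither group. The title of 16F8 gives IDH1 R132C/+ without expression of the mutant allele, and its mRNA is labelled wild-type. Parental and 16F8 are referred to below as the wild-type clones, although parental is the starting line. DCLK1 lay at 88 in parental and 2.5 in 16F8. CPA4, a metallocarboxypeptidase, had 617 and 578 in 47C2 and 476 and 668 in 45G3, against 99.2 and 93.3 in 17H5 and 99.8 and 121 in 8G12. Clones of a genotype lay close together, and the difference was 2.47 ± 0.68 (adjusted p = 0.583 over clones, limma). In the clone comparisons adjusted p ran from 1.51e-05 to 0.00028 (limma). The SE also takes in the spread of clones outside the comparison, with CPA4 at 256 in parental and 167 in 16F8. NRP1, a co-receptor of semaphorins and vascular growth factor, had 101 and 105 in 47C2 and 35.6 and 49.9 in 45G3, against 20 and 18.9 in 17H5 and 9.3 and 7.8 in 8G12, a difference of 2.17 ± 1.26, and was below the signal that the naming rule asks for among the 15 highest. The NRP1 call ended without either 17H5 replicate and without 45G3 replicate 2, whereas those of DCLK1 and CPA4 held without any 1 array.

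SGK1, a kinase induced by serum and glucocorticoid, had 417 and 388 in 47C2 and 431 and 359 in 45G3, against 164 and 143 in 17H5 and 193 and 202 in 8G12. Its R172K clones agreed closely, and the difference was 1.18 ± 0.28 (adjusted p = 0.495 over clones, limma; adjusted p from 1.1e-05 to 0.00164 in the clone comparisons). IGFBP6, a secreted binder of insulin-like growth factors, had 584 and 557 in 47C2 and 480.5 and 465 in 45G3, against 209 and 213 in 17H5 and 311 and 298 in 8G12, and 17H5 was lowest. It differed by 1.03 ± 0.33 (adjusted p = 0.657; adjusted p from 2.36e-08 to 0.000881). Versican (VCAN), a matrix proteoglycan, averaged 1212 ± 246 in R172K clones against 666 ± 97.2 in R140Q clones, and the transmembrane collagen COL13A1 averaged 347 ± 24.4 in R172K clones against 201 ± 26.9 in R140Q clones. These differed by 0.85 ± 0.25 and 0.79 ± 0.41. The glycosyltransferase gene B3GALT5 differed by 0.85 ± 0.46, TMEM158 by 0.89 ± 0.51, the noncoding RNA LINC02987 by 0.88 ± 0.18 and SCML1, a Polycomb-group homologue, by 0.78 ± 0.32, each called in all 4 comparisons. The calls of SGK1, IGFBP6 and LINC02987 held without any 1 array, whereas each of VCAN, COL13A1, B3GALT5, TMEM158 and SCML1 lost its call without 1 of at least 2 different arrays.

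JMJD6, a 2-oxoglutarate-dependent dioxygenase of the Jumonji family, was the only one of 35 tested dioxygenases that was called. Of all genes tested, 0.199% were called higher. Its signals were 625 and 625 in 47C2 and 646 and 680.5 in 45G3, against 219 and 208 in 17H5 and 461 and 413 in 8G12. Both R172K clones were above both R140Q clones, but 8G12 was nearer to R172K than to 17H5. The difference was 1.07 ± 0.31 (adjusted p = 0.602 over clones, limma; adjusted p from 5.24e-08 to 0.00806 in the clone comparisons). The call ended without either 47C2 replicate, without 8G12 replicate 2 and with the most variable probe set. The list's median was -0.06. KDM7A, a histone demethylase, had 137 and 153 in 47C2 and 211 and 171 in 45G3, against 356 and 399.9 in 17H5 and 177 and 180.0 in 8G12, in which only 17H5 stood apart. P4HA1, a collagen prolyl hydroxylase, averaged 986 ± 15.4 in R172K clones against 1321 ± 177 in R140Q clones and differed by -0.42 ± 0.12 without overlap. TET1, KDM5B and EGLN3 differed by -0.40, -0.39 and -0.38 with overlap, and the TET1 difference turned to 0.47 with its most variable probe set. Of 21 tested genes of DNA methylation and Polycomb, 0 were called, and their median was 0.07.

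**Figure D4:**
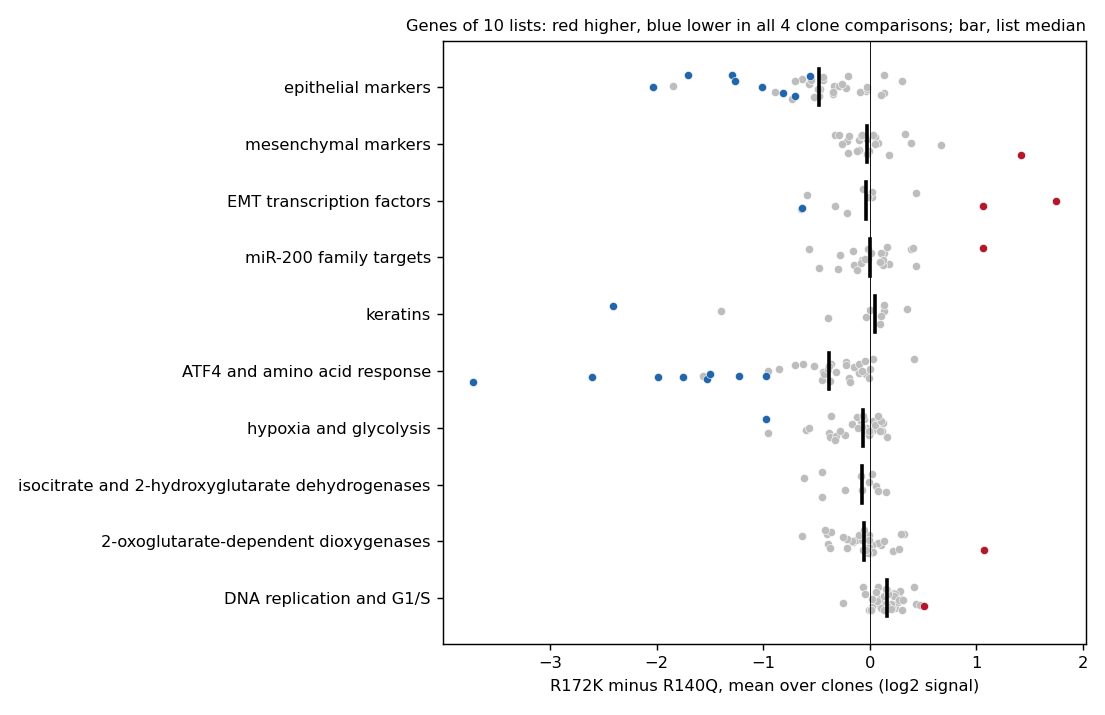
Difference R172K minus R140Q (log2 signal, mean over clones, horizontal axis) of each tested gene in 10 lists; points are genes, red or blue where all 4 clone comparisons passed, grey otherwise, and black bars are list medians. The medians of the epithelial list (-0.47) and of the ATF4 and amino acid response list (-0.39) lie farthest from 0.

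The other list with many called genes was the response to ATF4, a transcription factor that is translated when amino acids run short or the endoplasmic reticulum is stressed. Of its 37 tested genes 8 were called lower and 0 higher, against the same backgrounds of 0.822% and 0.199%. Of the 37, 34 were lower in R172K, against 54.0% of all genes. The median was -0.39. The R140Q clones did not agree on it: medians were -0.45 (47C2 minus 17H5) and -0.60 (45G3 minus 17H5), but -0.13 (47C2 minus 8G12) and -0.26 (45G3 minus 8G12), and 17H5 minus 8G12 gave 0.45 with 11 genes called higher. The mean log2 level of the list was 9.02 in 47C2 and 8.89 in 45G3, against 9.86 in 17H5 and 9.38 in 8G12. Parental and 16F8, both labelled wild-type in their mRNA, lay farther apart, at 9.93 and 8.89. The values of 47C2, 17H5 and 8G12 were between these, and that of 45G3 was close to 16F8. The mean log2 level of the epithelial list was 9.02 in parental and 8.80 in 16F8. It was 8.21 in 47C2 and 8.40 in 45G3, against 8.90 in 17H5 and 8.80 in 8G12. Both R140Q clones thus lay between parental and 16F8, and both R172K clones lay below them. ZEB1, VIM and CDH1 lay at 149, 148 and 1562 in parental and at 109, 83.3 and 1024 in 16F8. What sets the wild-type levels was not tested. Of the 8 genes, 6 were still called without 47C2 replicate 1, 47C2 replicate 2 or 8G12 replicate 1, 7 without 45G3 replicate 2, and 8 without any other single array.

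CHAC1, which degrades glutathione, had the largest difference of the list. Its signals were 30.7 and 33 in 47C2 and 25.5 and 40.5 in 45G3, against 645 and 597 in 17H5 and 439.5 and 242 in 8G12. The lowest R140Q array, 8G12 replicate 2, was far above the highest R172K array. The difference was -3.73 ± 0.82 (adjusted p = 0.495 over clones, limma; adjusted p from 2.36e-08 to 2.77e-06 in the clone comparisons), and the wild-type clones lay at 273 in parental and 27.8 in 16F8. DDIT3, the transcription factor CHOP, had 74.9 and 84.4 in 47C2 and 82.8 and 71 in 45G3, against 790.5 and 733 in 17H5 and 297 and 328 in 8G12. The R172K arrays were alike and 17H5 was higher than 8G12; the difference was -2.61 ± 0.61 (adjusted p = 0.495; adjusted p from 1.49e-09 to 2.77e-06). ATF3, another transcription factor of the response, had 254 and 247 in 47C2 and 263 and 284 in 45G3, against 987 and 964 in 17H5 and 701 and 496 in 8G12, and differed by -1.53 ± 0.37 (adjusted p = 0.495; adjusted p from 2.36e-08 to 0.000121).

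TRIB3, a pseudokinase that restrains AKT, had 132.7 and 150.3 in 47C2 and 125 and 174 in 45G3, against 815 and 831 in 17H5 and 347 and 245 in 8G12. The groups did not overlap, and 17H5 exceeded 8G12 by 1.49 (adjusted p = 3.34e-05, limma). SESN2, which restrains mTORC1 when leucine is scarce, had 95.1 and 97.1 in 47C2 and 101 and 84.3 in 45G3, against 573 and 551 in 17H5 and 311 and 214 in 8G12, with the same order. STC2, a secreted glycoprotein, had 338 and 364 in 47C2 and 231 and 356 in 45G3, against 1129.8 and 1062 in 17H5 and 783 and 708 in 8G12. Their differences were -1.75 ± 0.70 for TRIB3, -1.99 ± 0.56 for SESN2 and -1.50 ± 0.35 for STC2, and none passed over clones. Without any 1 array these 3 stayed called, and TRIB3 lost its call with its most variable probe set. DDIT4, an inhibitor of mTORC1 that is also counted among hypoxia genes, had 1546 and 1468 in 47C2 and 1683 and 1089 in 45G3, against 3162 and 2813 in 17H5 and 3041 and 2306 in 8G12. It differed by -0.98 ± 0.24 (adjusted p = 0.496; adjusted p from 0.000399 to 0.00795), and its call ended without either 47C2 replicate, 45G3 replicate 2 or 8G12 replicate 1. PCK2, the mitochondrial phosphoenolpyruvate carboxykinase, was named after its values were seen and averaged 289 ± 46.5 in R172K clones against 727 ± 386 in R140Q clones, a difference of -1.22 ± 0.64, and its call ended without either 47C2 replicate or 8G12 replicate 1. ATF4 itself, also named after its values were seen, differed by -0.11 ± 0.11, with overlapping arrays.

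The promoters of the 8 called genes of this list gave 12 entries in the RefSeq table. They were searched on both strands for TGATGNAA, the core of the composite element that ATF4 is known to bind with C/EBP partners, without masking other motifs. It was in 2 of the 12, one each of CHAC1 and ATF3, in 5.0% of the promoters of all genes called lower, in 3.0% of those of genes called higher, in 2.1% of those of all genes tested and in 3.6% of all promoters. Those of CHAC1 (chr15:40953221-40953520, plus strand; the match lies on the other strand) and ATF3 (chr1:212565157-212565456, plus strand) are shown because they hold it, with the match in capitals.
CHAC1: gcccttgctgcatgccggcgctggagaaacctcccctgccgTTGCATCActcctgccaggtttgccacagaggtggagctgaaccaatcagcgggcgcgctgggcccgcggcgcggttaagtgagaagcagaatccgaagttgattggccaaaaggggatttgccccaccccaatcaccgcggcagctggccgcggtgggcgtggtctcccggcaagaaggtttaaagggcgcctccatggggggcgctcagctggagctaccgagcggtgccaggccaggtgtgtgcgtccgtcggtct
ATF3: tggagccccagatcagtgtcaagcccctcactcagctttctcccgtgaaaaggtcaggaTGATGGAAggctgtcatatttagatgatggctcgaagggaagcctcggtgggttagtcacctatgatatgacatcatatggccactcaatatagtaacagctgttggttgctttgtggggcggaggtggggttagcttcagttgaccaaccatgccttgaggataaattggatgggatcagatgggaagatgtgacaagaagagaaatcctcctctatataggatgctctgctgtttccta

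**Figure D5:**
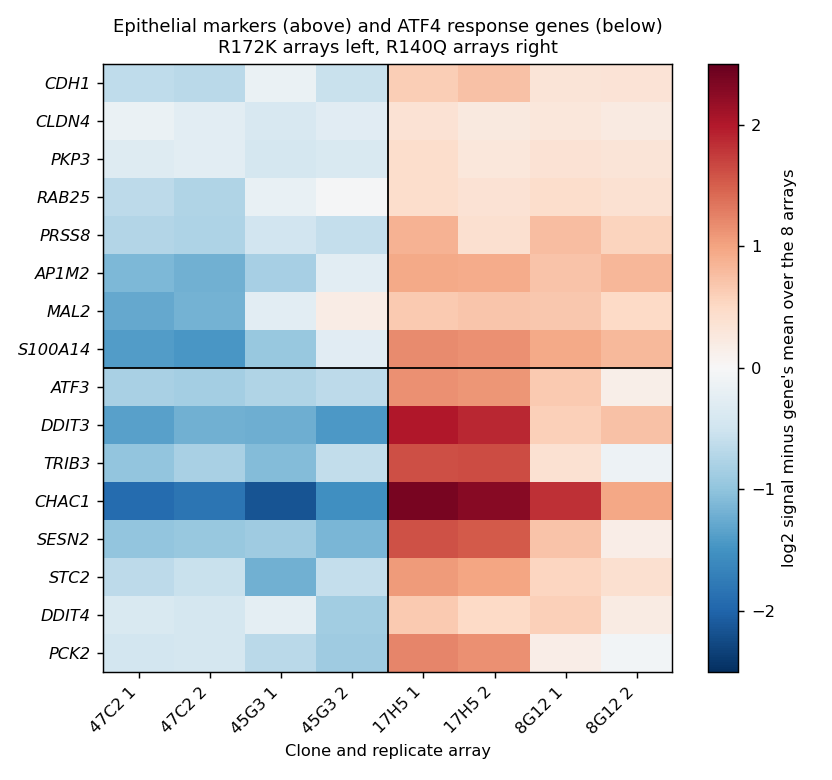
Level of the 8 called epithelial markers (above the line) and the 8 called ATF4 response genes (below) in each array, as log2(signal + 2.2) minus the gene's mean over the 8 arrays; red is higher and blue lower. R172K arrays are left and R140Q arrays right of the vertical line; 17H5 is deepest red for most ATF4 genes, and 45G3 is paler than 47C2 for MAL2, RAB25 and AP1M2.

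The largest difference among the genes called lower, at the offset of 2.2, was that of PRKAA2, a catalytic subunit of AMP-activated protein kinase. Its signals were 3.3 and 5.7 in 47C2 and 7.3 and 19.4 in 45G3, against 131 and 137 in 17H5 and 115 and 181 in 8G12. It was near the bottom of the scale in R172K clones and clearly above it in R140Q clones. The difference was -3.86 ± 1.19 (adjusted p = 0.629 over clones, limma; adjusted p from 1.28e-07 to 1.58e-05 in the clone comparisons). With offsets of 16 and 50 it was -2.68 and -1.69, smaller than that of CHAC1 at -3.28 and -2.61. The wild-type clones were themselves apart, at 47.4 in parental and 7.9 in 16F8. PROM2, a protein of epithelial membrane protrusions, had 40 and 38.5 in 47C2 and 53.2 and 39.4 in 45G3, against 405 and 449.8 in 17H5 and 242 and 239 in 8G12. It differed by -2.86 ± 0.51 (adjusted p = 0.389; adjusted p from 2.22e-08 to 7.33e-06). TMEM125 averaged 40.2 ± 26.2 in R172K clones against 156 ± 12.3 in R140Q clones and differed by -2.06 ± 0.58.

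TSC22D3, the glucocorticoid-induced leucine zipper, had 111 and 130.3 in 47C2 and 178 and 142 in 45G3, against 774 and 903 in 17H5 and 472 and 342 in 8G12. No arrays overlapped and 17H5 was highest; the difference was -2.05 ± 0.54 (adjusted p = 0.554 over clones, limma; adjusted p from 7.53e-09 to 0.000174 in the clone comparisons), and the wild-type clones lay at 422 in parental and 112 in 16F8. ARRDC4, an arrestin-domain protein that lowers glucose uptake, had 179 and 199.8 in 47C2 and 241 and 280.3 in 45G3, against 1183 and 1322 in 17H5 and 495 and 556 in 8G12. It differed by -1.86 ± 0.40 (adjusted p = 0.495; adjusted p from 1.07e-10 to 0.000118), and 17H5 exceeded 8G12 by 1.25. The homeobox gene MKX had 116 and 135 in 47C2 and 188 and 416 in 45G3, against 618 and 668 in 17H5 and 536 and 589 in 8G12, and 45G3 replicate 2 came near the R140Q arrays. MKX differed by -1.67 ± 0.48 and the lipid phosphatase-related gene PLPPR4 by -1.74 ± 0.33, and both calls ended without either 8G12 replicate. The MKX call also ended without 45G3 replicate 1, and that of PLPPR4 without 45G3 replicate 2.

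Hypoxia and glycolysis genes gave 1 call, DDIT4 (lower), among 36 tested, against 0.822% of all genes called lower, and a median of -0.07. Of the 36, 6 had an unadjusted p under 0.05 over clones (limma), all lower, against 603 lower of all 12537 genes. VEGFA, the vascular growth factor, had 668 and 622 in 47C2 and 360.5 and 341 in 45G3, against 1119 and 1385 in 17H5 and 782 and 598 in 8G12, and the groups overlapped. PDK1, which restrains pyruvate oxidation in mitochondria, had 451 and 438 in 47C2 and 466 and 444 in 45G3, against 688 and 760.0 in 17H5 and 548 and 694 in 8G12. It did not overlap, its difference was -0.57 ± 0.13 (adjusted p = 0.495 over clones, limma), and 2 comparisons, those with 17H5, passed. ALDOC differed by -0.60 ± 0.19 and ANKRD37 by -0.39 ± 0.24.

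Genes of DNA replication and the G1/S step leaned the other way, with a median of 0.16 in 39 tested genes, 35 of them higher in R172K and 1 called. Of all genes tested, 54.0% lay lower in R172K and 0.199% were called higher. CCNE1, the cyclin that drives entry into S phase, had 1345 and 1313 in 47C2 and 1265 and 1395 in 45G3, against 856 and 847 in 17H5 and 1071 and 967 in 8G12. Every R172K array was above every R140Q array; the difference was 0.51 ± 0.14 (adjusted p = 0.583 over clones, limma; adjusted p from 8.26e-05 to 0.0219 in the clone comparisons). The call ended without either 47C2 replicate, 45G3 replicate 2 or 8G12 replicate 2. FEN1, a flap nuclease, had 1850.3 and 1813 in 47C2 and 1804 and 1792 in 45G3, against 1054 and 990.4 in 17H5 and 1694 and 1638 in 8G12, in which 17H5 alone was low. MCM10, CDK6, RPA2 and POLE2 differed by 0.44, 0.41, 0.31 and 0.30. The list's medians were 0.17 and 0.26 against 17H5 (47C2 and 45G3), and 0.02 and 0.11 against 8G12. The cell division list (34 tested) had a median of 0.07 and 0 called genes.

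Calls in the remaining lists were few. Of all genes tested, 0.199% were called higher and 0.822% lower. TIGAR, a p53 target that lowers glycolysis, was called higher (0.55), and SESN2 lower, among 26 p53 targets. CCN1, a YAP target, was called lower (-0.62), as were HERPUD1, of endoplasmic reticulum protein degradation (-0.77), and HLA-F, an antigen presentation gene (-0.45); these and TIGAR fall outside the naming rule and were named after their values were seen. No gene was called among the integrins and laminins (16 tested), colon lineage and Wnt genes (20), the TCA cycle and glutamine genes (36), cholesterol synthesis (19), fatty acid synthesis (18), NRF2 targets (27), serine and one-carbon genes (20), the respiratory chain (38), cytosolic ribosomal proteins (41), EGF receptors and ligands (23), or drug and ion transporters (21).

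Clones of 1 genotype also differed from each other, and of the 6 genes named next for R172K only NRP1 was called in all 4 comparisons between genotypes. In R172K, ILDR2, STON2 and DPYSL3 were lower, and SYTL2, TMEM200A and NRP1 higher, in 47C2 than in 45G3. ILDR2, of the angulin family of junction proteins, had 12.8 and 14.4 in 47C2 and 172.5 and 124 in 45G3, against 136 and 124 in 17H5 and 114 and 149 in 8G12, so that 45G3 overlapped the R140Q clones and 47C2 minus 45G3 was -3.23 (adjusted p = 6.58e-07, limma). TMEM200A had 817 and 798 in 47C2 and 186 and 422 in 45G3, against 158 and 164 in 17H5 and 258 and 272 in 8G12. There 47C2 stood above the 3 other clones. For SYTL2, of vesicle transport, 47C2 minus 45G3 was 1.77, for STON2, of endocytosis, -1.87, and for DPYSL3, of the neuronal cytoskeleton, -2.05.

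In R140Q, LURAP1L, PTGS2 and SCG2 were higher, and APOBEC3G, ITGBL1 and NRG1 lower, in 17H5 than in 8G12. APOBEC3G, a cytidine deaminase that restricts retroviruses, had 9.3 and 9.3 in 47C2 and 35.5 and 24 in 45G3, against 8.6 and 9.8 in 17H5 and 203 and 224 in 8G12. Its high signal was confined to 8G12 among these 4 clones, and 17H5 minus 8G12 was -4.24 (adjusted p = 6.53e-08, limma). NRG1, a ligand of ERBB receptors, had 120.1 and 112 in 47C2 and 43.1 and 109 in 45G3, against 34.6 and 33.8 in 17H5 and 307 and 325 in 8G12, with 8G12 above and 17H5 below the R172K clone means. PTGS2, the inducible cyclooxygenase, had 21.4 and 16.6 in 47C2 and 23.3 and 25 in 45G3, against 103 and 110.2 in 17H5 and 25.6 and 42.7 in 8G12. For ITGBL1, SCG2 and LURAP1L, 17H5 minus 8G12 was -3.35, 1.53 and 2.16. The APOBEC3G difference within R140Q and the ILDR2 difference of -3.23 within R172K are each from 1 clone comparison. Mean differences between genotypes among the called genes, from -3.86 to 3.43, are a different measure. In single comparisons between genotypes, DCLK1 reached 4.68 (47C2 minus 17H5) and PRKAA2 -4.47 (47C2 minus 8G12). In size, both exceeded the APOBEC3G difference within R140Q, at the offset of 2.2.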

How the data were processed

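Total RNA of HCT116 clones was amplified, labelled with biotin and hybridised to Affymetrix arrays of 54675 probe sets, per the labels' protocols. The deposited values are probe set intensities, MAS5 signals on a linear scale per the submitters' processing notes. The MAS5 version was not given in the sources used here. Each array's mean over the middle 96% of values lay at 150.01 to 150.02, which shows a common scaling by the authors. Signals spanned 0 to 8500.9, and their median was 13.1.

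Of the probe sets, 41091 carried 1 gene symbol in the platform annotation, 1801 several, 11721 none, and 62 were controls; 41037 of the first were matched to RefSeq by gene ID. Signals were taken as log2(signal + 2.2), the offset being the 25th percentile of all values. A probe set was kept when both arrays of at least 1 clone reached the array's median, and the probe set of highest mean stood for each gene, which left 12537 of 19775 genes. limma 3.58.1 in R 4.3.3 (lmFit, eBayes with trend, two-sided, Benjamini-Hochberg, 0.05) compared genotypes on 9 clone means in 5 genotypes, with R172K minus R140Q as the contrast; wild-type and IDH1-mutant clones enter only the shared estimate of the spread. The same tool compared clones on 18 arrays. Errors of signals are standard deviations over 2 clone means unless stated, and those of differences are standard errors. A p-value from a clone comparison measures the spread between the arrays of a clone, which the labels call biological replicates. The scripts were tested on simulated data. Figures used Python 3.11.15 and matplotlib 3.10.9.

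The clones, 31 gene lists (850 genes, 677 tested) and tests were chosen with earlier results of these data known. Named genes are CDH1, CDH2, EPCAM, IDH1, IDH2, VIM, ZEB1 and ZEB2; the 5 smallest p-values over clones, since fewer than 3 genes passed; of genes called in all 4 clone comparisons, with a mean signal of at least 100 where higher, the 15 highest and 15 lowest; the 3 highest and 3 lowest within each genotype; and up to 6 members of each of 10 lists described. XIST, genes of chromosome Y and genes lacking an official symbol are left unnamed. Alternatives were other offsets (16, 50 and a smaller one), filters, quantile normalization, probe set, variance trend, replication unit, clones, a block for the replicate number, and every array or clone left out in turn. Replicate numbers did not pair the arrays: the deviations of replicate 1 correlated at 0.007 to 0.076 over pairs of clones.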

Additional observations from a re-analysis of the deposited data

Results flagged for a closer look

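Within each genotype, the highest or lowest of the 4 arrays was tested for its gap to the nearest other array, as a share of the range, against Dixon's critical value. Of 188 groups of 4 arrays (94 named genes in 2 genotypes), 9 exceeded it, which is close to the 1 in 20 that chance gives for 4 like values. Here a group holds arrays of 2 clones and the genes were chosen by their values, so that rate is only a guide. Most were in 45G3 replicate 1, the array with the lowest poly-A controls: SCML1 at 463.7, PROM2 at 53.2, PLPPR4 at 37.2 and FN1 at 271.0 were above the other R172K arrays, and NRG1 at 43.1 and STC2 at 230.8 below them. KDM5B was low at 253.9 in 45G3 replicate 2. In R140Q, IDH1 was low at 1343.7 in 8G12 replicate 2, while the other 3 arrays lay within 1463 to 1468, and RND3 was low at 744.9 in 8G12 replicate 1. Each of SCML1, PROM2, PLPPR4, STC2 and RND3 kept its order of genotypes in every array. A part of poly-A controls or of any other array property in these values was not tested.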

How the results depend on the processing

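Over clones the count of 0 genes held under other offsets, filters, normalization, probe sets and variance models, and without each array or clone. It became 28 genes (6 higher, 22 lower, all among the 128) with only the 4 IDH2-mutant clones, 217 with arrays and the clone as a random block, 163 when the replicate block was added, and 527 with arrays as independent, which ignores that arrays share a clone. The count of 128 in all 4 comparisons was 94 to 138 under the alternatives that keep all arrays, 131 with the replicate block, and 64 to 119 (61 to 92 shared) without 1 array, lowest without 8G12 replicate 1. Of 41 named genes called, 20 were called under each of 18 alternatives. The EMT score difference stayed positive under each alternative run. Of the list medians under alternatives, 436 stayed within the spread between clones and 58 moved beyond it. Of 94 named genes, 30 had differences that moved by over 1.5 times with an offset of 50, and 7 with 16. None of the differences that changed sign passed over clones or belonged to a gene called in all 4 comparisons, and the cause was not tested. With the most variable probe set, TET1 turned to 0.473 and MDH2 to 0.045, and with an offset of 50 ITGBL1 turned to -0.051. With 1 array or clone left out, differences ranged from -3.066 to 0.165 for ILDR2, -1.616 to 0.435 for DPYSL3, -1.858 to 0.013 for STON2, -0.844 to 0.685 for SCG2, -3.50 to 0.74 for APOBEC3G, -1.409 to 1.938 for ITGBL1, -1.796 to 1.332 for NRG1, -1.397 to 0.225 for TWIST1 and -0.009 to 0.27 for KRT8. Dim genes, such as TMPRSS4, and the 2 clones per genotype limit what can be shown.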

Other observations

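Genes of MHC class II, which present antigen and which most epithelial cells carry only when induced, were lower in R172K and were looked at after their values were seen. Of 11 tested genes, 11 had a negative difference and 4 were called lower (HLA-DPA1, HLA-DPB1, HLA-DRA and HLA-DRB1), with a median of -0.92. Some of the 11 were dim: CD74 lay at 4.2 to 18.3 and HLA-DOB at 2.2 to 10.9 over the 8 arrays. The shared sign is therefore no separate support. Of all genes, 54.0% lay lower in R172K and 0.822% were called lower. HLA-DRA had 23.5 and 22.2 in 47C2 and 32.1 and 23.4 in 45G3, against 102 and 98.7 in 17H5 and 63.6 and 54.3 in 8G12. Every R140Q array was above every R172K array, and the difference was -1.54 ± 0.29 (adjusted p = 0.389 over clones, limma). HLA-DRB1 had 26.6 and 28.5 in 47C2 and 70.5 and 41 in 45G3, against 138 and 106 in 17H5 and 112 and 104 in 8G12, a difference of -1.51 ± 0.36 (adjusted p = 0.495). HLA-DPA1 and HLA-DPB1 were dim in R172K, at 6.1 to 9.6 and 8.2 to 9.3, against 21.7 to 30.7 and 24.4 to 39.2 in R140Q. Both were below the array median in every R172K array. Among these 4 clones they passed the filter only through R140Q, where they were higher. CIITA, the activator of these genes, was dim in all 8 arrays (2.1 to 6.9) and was not tested. HLA class II genes are near copies of each other, so a probe set can take signal from more than 1 of them. With the filter at the 75th percentile none of the 11 genes was bright enough to be tested. Of the 4 calls, 1 stayed without 8G12 replicate 1 or 45G3 replicate 2, 2 without 17H5 replicate 2 or 8G12 replicate 2, and 3 without 47C2 replicate 1 or with only the 4 IDH2-mutant clones.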
